A study of Mus musculus with 8 samples.

Results

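The 10 genes described here encode calprotectin and cargo of neutrophil granules, with 3 stefin genes that neutrophils also transcribe. They are S100a8, S100a9, Ngp, Ltf, Lcn2, Cd177, Chil3, Stfa2, Stfa2l1 and BC100530, 10 of the 23282 rows in each gene count table. They were picked by name because of their levels in these same libraries, so their own values are given as a description. Where a fit over all genes called members, their number stands beside the share of all genes called, and nothing is read from it. The tissue was gastrocnemius, the large calf muscle, from mice of the C57BL/6 strain, for which the design text lists an age of 4 weeks. Its RNA was read with a 3′ mRNA kit (QuantSeq), which sequences the end of each transcript. In 3 libraries titled Normal, the mice had 100 µl of saline under the skin and then 200 µl of distilled water by mouth. In 3 libraries titled Control, mice had 1000000 Lewis lung carcinoma cells, a mouse lung tumour line, in the same volume, and the same water. In 2 libraries titled RP, mice with that tumour had 100 mg/kg of a 30% ethanol extract of Paeonia lactiflora, a peony, in the water, daily for 2 weeks. Dosing began once tumours had grown for 2 weeks and mice had been sorted into groups of matched tumour size. The study asked how the tumour and the extract change muscle RNA in cancer cachexia, the wasting that accompanies some tumours.

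Groups follow the titles. The deposited tables of the 6 Normal-titled and Control-titled libraries carry the other group's name, which no measurement here settles. Every direction below therefore holds for the titles, and would turn between Normal and Control if the table names were right. The labels do not say that each library was a separate mouse, so the spread between libraries may be partly technical. Totals ran from 9528011 to 12333767 counts per library, so that 1 count was worth 0.0811 to 0.105 CPM, the count scaled to a library total of 1000000.

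Neutrophils are short-lived white cells made in the bone marrow and carried in blood. As they mature they fill granules in a fixed order, with primary granules (Mpo, Elane) first, then secondary granules (Ltf, Lcn2, Ngp, Camp), then gelatinase granules, and the RNA of early granule proteins is largely gone from cells that reach the blood. S100A8 and S100A9 pair as calprotectin, a calcium- and metal-binding protein that fills the cytoplasm of these cells and, when released, acts on receptors such as TLR4. Resting muscle holds few neutrophils outside its vessels. In bulk tissue, fewer cells of a type and less RNA per cell cannot be told apart.

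On mouse build mm10, S100a8 (chr3:90668978-90670035, plus strand) and S100a9 (chr3:90692632-90695721, minus strand) lie 22.6 kb apart. Ngp (chr9:110419747-110423012) and Ltf (chr9:111019271-111042767) lie 596 kb apart on the plus strand, with Camp nearby. The 3 stefin genes Stfa2l1 (chr16:36156811-36161953), BC100530 (chr16:36359382-36367748) and Stfa2 (chr16:36403992-36408457) lie within 1 cluster on chromosome 16. Lcn2 (chr2:32384633-32388252), Cd177 (chr7:24743983-24760311) and Chil3 (chr3:106147554-106167564) stand apart from the other members.

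RefSeq held upstream windows for 9 of the 10 members, all but BC100530. The 250 bases before the start were searched on both strands for TTGCNNAA, a core that C/EBP factors bind. C/EBP factors drive granule genes in maturing neutrophils. The letters occurred in 4 of the 9 windows, those of S100a9, Ngp, Ltf and Lcn2, against 9.56% of 32851 RefSeq windows of the same length. The windows of the first 3 are shown because they carry the match, from build GRCm38.p6 (the mm10 build), 5′ to 3′ in the direction of the gene and with the match in capitals. They stop before the first base that the GENCODE annotation counts as exon. They span chr3:90695722-90695971 on the minus strand for S100a9, chr9:110419558-110419746 for Ngp and chr9:111019042-111019270 for Ltf.
S100a9: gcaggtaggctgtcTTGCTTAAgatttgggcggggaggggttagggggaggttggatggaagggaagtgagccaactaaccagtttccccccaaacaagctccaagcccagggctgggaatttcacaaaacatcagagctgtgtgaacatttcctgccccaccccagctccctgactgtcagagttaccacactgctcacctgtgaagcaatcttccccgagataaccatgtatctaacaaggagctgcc
Ngp: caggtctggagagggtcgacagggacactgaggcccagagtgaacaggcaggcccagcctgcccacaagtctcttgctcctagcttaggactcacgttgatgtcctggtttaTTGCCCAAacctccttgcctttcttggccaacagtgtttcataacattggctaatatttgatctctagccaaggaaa
Ltf: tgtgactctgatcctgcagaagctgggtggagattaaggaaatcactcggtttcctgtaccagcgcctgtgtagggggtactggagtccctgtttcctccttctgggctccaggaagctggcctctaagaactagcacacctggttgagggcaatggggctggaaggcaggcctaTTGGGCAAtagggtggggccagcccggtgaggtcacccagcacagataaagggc
Counted from the RefSeq start, the matches begin at base -236 in S100a9, -138 in Ngp and -75 in Ltf. The Ltf match is on the opposite strand and is the reverse complement of the letters in Ngp. A second match in Ngp begins at -11 and is not shown, since GENCODE counts it as exon. Of the other motifs searched, GAGGAA (a core that PU.1 binds) occurred in 6 of 9 windows against 23.3% of all, and TATAAA in 2 (S100a8 and Cd177) against 12.4%. TTCNNNGAA, a STAT site, occurred in 1 (Chil3) against 7.02%, and an NF-κB core of 10 letters in 0 against 1.41%. Such a match is a run of letters, not a measured binding site.

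For all 10 members the mean was highest in the Normal-titled libraries and lowest in the Control-titled libraries, and the pair of RP libraries differed widely. Summed over the members, the level was 966, 1894 and 1134 CPM in Normal-titled libraries 1, 2 and 3, and 10.5, 9.31 and 19.0 CPM in Control-titled libraries 1, 2 and 3. RP library 1 had 30.7 CPM and RP library 2 had 456 CPM. The 10 genes together thus made up 0.0966% to 0.189% of the counts in Normal-titled libraries and at most 0.0019% in Control-titled ones. S100a8 and S100a9 supplied 90.1% to 96.8% of these counts in each of the 8 libraries, so the sum describes calprotectin more than granules.

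**Figure D1:**
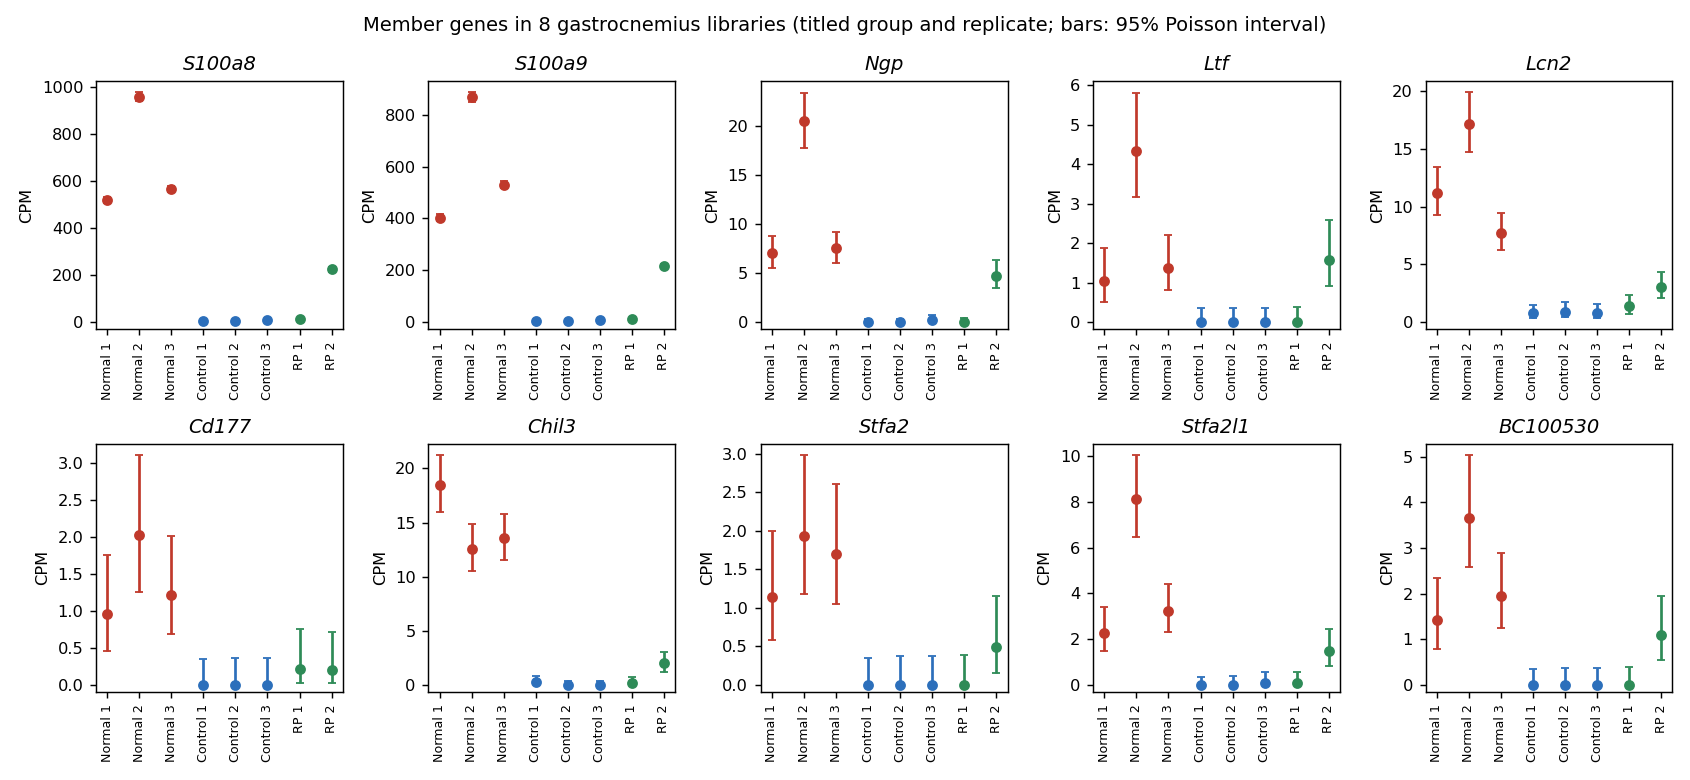
Level of each of the 10 member genes, in CPM on a linear axis that differs between panels, in the 8 libraries (red Normal-titled, blue Control-titled, green RP). Points are single libraries and bars are 95% Poisson intervals for counting error; every Normal-titled point lies above every Control-titled point, and RP library 2 lies above RP library 1 in all panels but Cd177.

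Calprotectin came first in level. S100a8, which encodes the smaller subunit, was at 519, 956 and 565 CPM in the Normal-titled libraries, 3.03, 5.003 and 9.11 CPM in the Control-titled libraries, and 15.0 and 224 CPM in the RP libraries. The 3 groups did not overlap. The Normal-titled mean was 680.1 ± 240.4 CPM (SD, n = 3) and the Control-titled mean 5.71 ± 3.10 CPM (SD, n = 3), 119-fold lower. S100a9, which encodes the larger subunit, was at 403, 867 and 531 CPM in the Normal-titled libraries, 6.44, 3.40 and 8.81 CPM in the Control-titled libraries, and 13.8 and 217 CPM in the RP libraries. Its groups did not overlap either, and Normal-titled library 2 was highest for both subunits. The Normal-titled mean was 600.4 ± 239.9 CPM and the Control-titled mean 6.22 ± 2.71 CPM (SD, n = 3 each), 96.6-fold lower.

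The subunits kept a similar ratio where both were abundant. S100a9 made up 43.7%, 47.6% and 48.4% of the summed S100a8 and S100a9 counts in the Normal-titled libraries, and 47.8% and 49.1% in the RP libraries. The Control-titled libraries gave 68.0% (exact 95% binomial interval 57.9% to 77.0%, of 100 counts), 40.5% and 49.2%. Control-titled library 1 was the only one of the 8 in which S100a9 counts outnumbered those of S100a8, at 68 against 32. The intervals cover counting error only, and reads of a 3′ kit without molecular identifiers are not independent molecules.

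Among the secondary granule genes, Ngp and Ltf were nearly or wholly undetected in the Control-titled libraries. Ngp, neutrophilic granule protein, had 74, 212 and 93 counts in the Normal-titled libraries, 0, 0 and 2 in the Control-titled libraries, and 0 and 48 in the RP libraries. RP library 1 lay among the Control-titled libraries and RP library 2 below the lowest Normal-titled library. The Normal-titled mean was 11.7 ± 7.62 CPM (SD, n = 3), and the pooled counts were 174-fold lower in the Control-titled group, with a counting interval of 47.9 to 1444, since that fold rests on 2 counts. Ltf encodes lactoferrin, the iron-binding protein of these granules. It had 11, 45 and 17 counts in the Normal-titled libraries, 0 in every Control-titled library, and 0 and 16 in the RP libraries. RP library 2, at 1.59 CPM, lay within the Normal-titled range of 1.05 to 4.35 CPM, and Ltf was the only member for which it did. Set against 3 counts over the Control-titled group, used in place of a count of 0, Ltf was 23.0-fold lower there. The lower 95% counting limit, which also covers the error of the Normal-titled counts, was 17.7-fold. At 3 counts the Control-titled level was 0.0435 of the Normal-titled mean, and 0.0811 of it without Normal-titled library 2.

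Lcn2 encodes lipocalin 2, a protein that withholds bacterial siderophore iron and that epithelial, fat and other cells also make. Its counts were 118, 178 and 95 in the Normal-titled libraries, 8, 9 and 8 in the Control-titled libraries, and 13 and 31 in the RP libraries. Among the granule genes of the 10 members it was the only gene detected in all 8 libraries, and the 3 groups did not overlap. The means were 12.0 ± 4.80 CPM (SD, n = 3) and 0.820 ± 0.0735 CPM (SD, n = 3), 14.7-fold lower in the Control-titled libraries. Cd177 encodes a surface protein of the secondary granules and plasma membrane that presents proteinase 3. It had 10, 21 and 15 counts in the Normal-titled libraries, 0 in every Control-titled library, and 2 and 2 in the RP libraries. The RP libraries did not differ for Cd177, and its Normal-titled mean was 1.40 ± 0.561 CPM (SD, n = 3). Set against 3 counts over the Control-titled group, Cd177 was 14.2-fold lower there. The upper 95% counting limit of the Control-titled to Normal-titled ratio, which also covers the error of the Normal-titled counts, was 0.0908. A fold below 14.2 is therefore not excluded.

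Chil3 encodes Ym1, a chitinase-like lectin of mouse neutrophils and of some macrophages. Its counts were 194, 130 and 167 in the Normal-titled libraries, 3, 0 and 0 in the Control-titled libraries, and 2 and 20 in the RP libraries. It was the only member that was highest in Normal-titled library 1, whereas the other 9 were highest in library 2. With a Normal-titled mean of 14.8 ± 3.15 CPM (SD, n = 3), its pooled counts were 151-fold lower in the Control-titled group (counting interval 51.2 to 732).

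Stefins are small inhibitors of cysteine cathepsins, and the mouse has a cluster of them that blood neutrophils transcribe. Stfa2l1 had 24, 84 and 40 counts in the Normal-titled libraries, 0, 0 and 1 in the Control-titled libraries, and 1 and 15 in the RP libraries. Stfa2 had 12, 20 and 21, then 0 in every Control-titled library, and 0 and 5 in the RP libraries. BC100530 had 15, 38 and 24, then 0 in every Control-titled library, and 0 and 11 in the RP libraries. For each stefin all 3 Normal-titled libraries lay above all the others. Pooled counts of Stfa2l1 were 136-fold lower in the Control-titled group (interval 24.1 to 5412). At 3 counts over that group Stfa2 was 16.2-fold lower and BC100530 23.9-fold, with lower 95% counting limits of 12.8-fold and 18.7-fold.

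The stefins cannot be fully separated. Of 251 windows of 50 bases in the last 300 bases of the transcript, 66.1% of those of BC100530 also occur in Stfa1, BC117090 or Csta1, and about 25.1% of those of Stfa2 in Stfa2l1 or another stefin-like gene. The 250-base upstream windows of Stfa2 and Stfa2l1 matched at 89.4% of alignment columns. For Cd177, 61.0% of windows occur in Gm4763 or BC049730. How reads that fit several genes were counted is not given in the sources used here, so levels of these 4 genes are uncertain, and exons of BC100530 also overlap Gm15845. No such window of S100a8, S100a9, Ngp, Ltf, Lcn2 or Chil3 was shared.

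In the fit over all genes (edgeR quasi-likelihood, Benjamini-Hochberg adjusted p under 0.05), all 10 members were lower in the Control-titled than in the Normal-titled libraries. Of the 13174 genes tested, 5.45% were lower and 4.99% higher, 10.4% in all. The members were chosen on this contrast, so nothing is read from that count. The groups did not overlap for any of the 10, beside 7.87% of all tested genes with every Control-titled library below every Normal-titled library. With the 4 undetected genes at their bounds, the median log2 ratio over the members was -5.59, and the median fitted log2 change was -7.09 beside 0.0004 over all genes.

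Of each member the RP libraries held more, on average, than those titled Control, and most of it was in RP library 2, except for Cd177. The mean of the RP libraries was 20.9-fold higher for S100a8 and 18.5-fold higher for S100a9, and 2.71-fold higher for Lcn2. Pooled counts were 37.4-fold higher for Ngp (counting interval 9.80 to 318), 24.9-fold for Stfa2l1 (3.87 to 1045) and 11.4-fold for Chil3 (3.43 to 59.6). Set against 3 counts over the Control-titled group, the RP mean was 8.08-fold higher for Ltf, 5.55-fold for BC100530, 2.52-fold for Stfa2 and 2.08-fold for Cd177. The lower 95% counting limits of the pooled ratios, which also cover the error of the RP counts, were 6.01, 3.91, 1.43 and 1.03. Without 1 Control-titled library fewer counts stand behind the ratios to 3 counts, and the lowest of these ratios were 5.29, 3.63, 1.65 and 1.36. Those means hide a gap between the libraries, since RP library 2 had 15.0 times as much S100a8 as RP library 1 (counting interval 12.6 to 17.8) and 15.8 times as much S100a9 (13.2 to 19.0). For Lcn2 the ratio was 2.25 (1.15 to 4.69), for Chil3 9.45 (2.30 to 83.4), for Stfa2l1 14.2 (2.18 to 597) and for Cd177 0.945 (0.0685 to 13.04). Where RP library 1 had no count, the ratio of RP library 2 to 3 counts in that library was 15.1 for Ngp, 5.04 for Ltf, 3.46 for BC100530 and 1.58 for Stfa2. The lower 95% counting limits of these ratios, which also cover the error of RP library 2, were 11.8, 3.64, 2.37 and 0.866, so for Stfa2 no difference between the RP libraries was detectable at this depth. The summed level was 18.8 times the Control-titled mean with both RP libraries, 2.37 times with RP library 1 alone and 35.2 times with RP library 2 alone.

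Both RP libraries lay above all Control-titled libraries for 5 members (S100a8, S100a9, Lcn2, Cd177 and Stfa2l1), beside 7.09% of all tested genes. For Stfa2l1 this rests on 1 count in RP library 1 against 1 count in the slightly deeper Control-titled library 3. For Cd177 it rests on 2 counts in each RP library against 0 in every Control-titled library. In the fit over all genes, 2 members, S100a8 and S100a9, were called higher, beside 0.144% of genes higher and 0.0304% lower (0.175% in all). The comparison shares its Control-titled libraries with the one above, and the members were chosen with these values known.

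Against the Normal-titled libraries, RP library 2 held a partial level. It reached 33.0% of the Normal-titled mean for S100a8, 36.1% for S100a9, 40.8% for Ngp and 32.7% for Stfa2l1, and the median over the 10 members was 32.9%. Ltf was highest at 70.3%, with a counting interval of 40.2% to 114%, from 16 counts. Chil3 at 13.4% and Cd177 at 14.2% were lowest, the first from 20 counts and the second from 2. RP library 2 lay below every Normal-titled library for 9 members and above every Control-titled library for all 10. RP library 1 was between 0% and 15.0% of the Normal-titled mean and lay within the Control-titled range for 5 members. No share over all genes is given for these counts of single RP libraries, and nothing is read from them. Taking both RP libraries, the mean was lower than the Normal-titled mean by 5.68-fold for S100a8, 5.21-fold for S100a9, 5.42-fold for Lcn2 and 13.5-fold for Chil3. The groups did not overlap for 9 members, beside 12.2% of all tested genes, and 2 members (Lcn2 and Chil3) were called lower, beside 0.835% of genes lower and 1.67% higher (2.5% in all), from which nothing is read for the same reason.

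**Figure D2:**
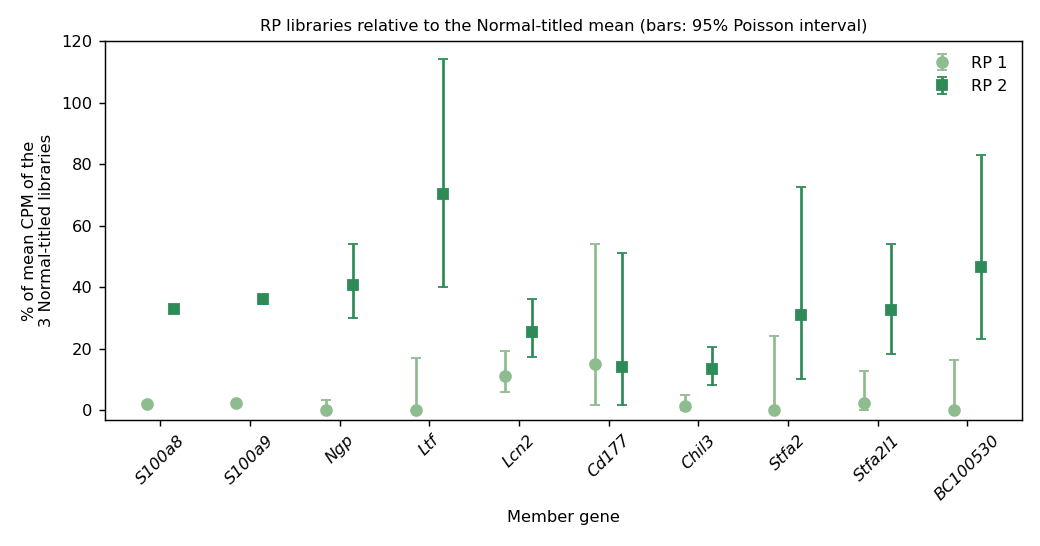
Level of each member in RP library 1 (light circles) and RP library 2 (dark squares) as a percent of the mean level of the 3 Normal-titled libraries, with 95% Poisson intervals of the RP count alone. RP library 1 lies between 0% and 15.0% and RP library 2 between 13.4% (Chil3) and 70.3% (Ltf).

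The levels of granule genes relative to calprotectin were also computed. Lcn2 gave 12.2, 9.42 and 7.03 counts per 1000 counts of S100a8 and S100a9 in the Normal-titled libraries and 6.97 in RP library 2. In the Control-titled libraries it gave 80.0, 107 and 44.7, and in RP library 1 47.5. The 4 libraries with little calprotectin thus had the higher relative Lcn2, and the 4 with much calprotectin the lower. Calprotectin is the divisor of this ratio, so that order is partly built in and nothing is read from it. Ngp gave 7.62, 11.2 and 6.88 in the Normal-titled libraries and 10.8 in RP library 2, within the Normal-titled range. It gave 0, 0 and 11.2 in the Control-titled libraries and 0 in RP library 1. Chil3 gave 19.98, 6.88 and 12.4 in the Normal-titled libraries and 4.497 in RP library 2, which was below all 3. It gave 30.0, 0 and 0 in the Control-titled libraries and 7.30 in RP library 1, from at most 3 counts each.

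**Figure D3:**
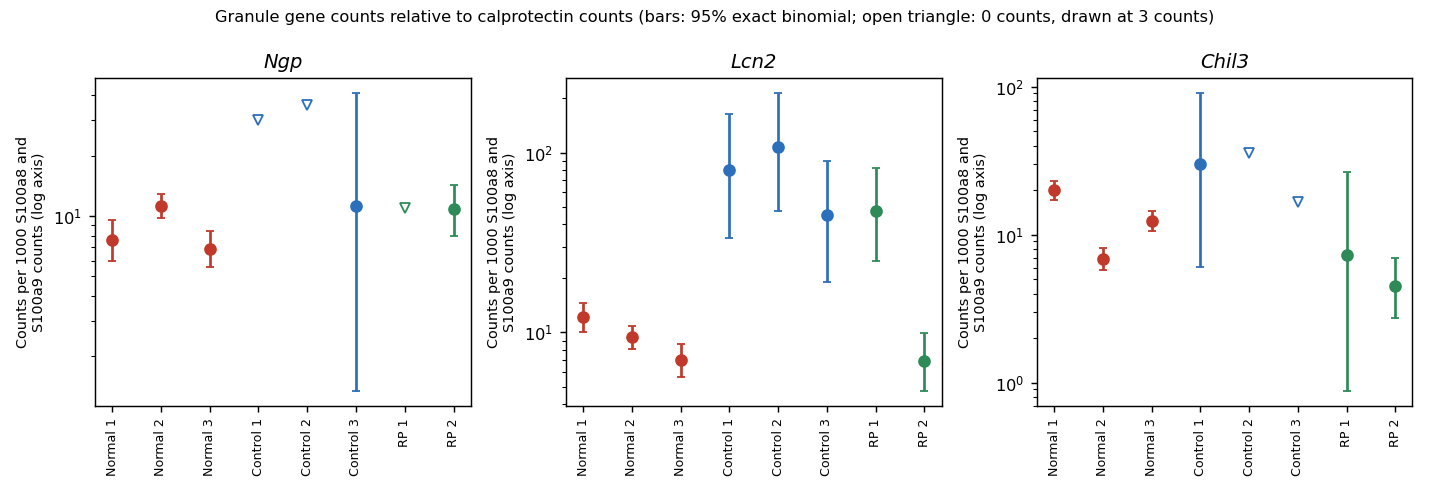
Counts of Ngp, Lcn2 and Chil3 per 1000 counts of S100a8 and S100a9 in each library, on log axes that differ between panels, with 95% exact binomial intervals; open triangles mark libraries with 0 counts, drawn at 3 counts. Lcn2 lies at 44.7 or more in the Control-titled libraries and RP library 1 and at 12.2 or less in the other 4.

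Genes that were not members, but are known from neutrophils, were counted in the same fit. Of 55 genes in 6 lists, 54 were in the tables and 36 were tested. In Control-titled against Normal-titled libraries 19 of the 36 were lower and 0 higher, beside 5.45% of all tested genes lower, and their median log2 change was -1.30 beside 0.0004. The lists were drawn up with earlier results of these data known, so these counts describe and do not test the lists. Leaving out single libraries gave 14 to 21 calls.

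Among secondary granule genes other than the members, 4 of 5 tested fell. Mmp8, neutrophil collagenase, was at 11.2, 22.6 and 14.3 CPM in the Normal-titled libraries, 0, 0.200 and 0.300 CPM in the Control-titled libraries, and 0.105 and 5.55 CPM in the RP libraries. Camp, the cathelicidin precursor and a neighbour of Ngp on chromosome 9, was at 4.37, 11.4 and 3.32 CPM, then 0.284, 0.1001 and 0 CPM, then 0.210 and 4.76 CPM. Both had RP library 2 far above RP library 1, and Camp in RP library 2 lay within the Normal-titled range. The log2 change of Mmp8 was -6.65 ± 0.91 (SE, edgeR adjusted p = 0.00067) and that of Camp -5.58 ± 1.02 (SE, edgeR adjusted p = 0.00411). Slpi, a protease inhibitor, and Pglyrp1, which binds bacterial cell wall, also fell, Pglyrp1 not without Control-titled library 2 or 3 (adjusted p of 0.0584 and 0.0705). Hp, haptoglobin, which other cells make as well, had a log2 change of 0.21 ± 0.34 (SE, edgeR adjusted p = 0.753).

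Of the 8 primary granule genes, 6 were at or near 0 in every group. Mpo, myeloperoxidase, had 2 counts in Normal-titled library 3 and none elsewhere, and Elane, neutrophil elastase, had 1 count in each of Normal-titled libraries 1 and 2. Prtn3 and Prss57 alone passed the filter, neither was called, and both have exons that overlap another gene.

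Gelatinase granule and secretory vesicle genes gave 4 lower of 7 tested, the formyl peptide receptors Fpr1 and Fpr2 and the integrin chains Itgam and Itgb2. Fpr2 had a log2 change of -4.13 ± 0.55 (SE, edgeR adjusted p = 0.000548). Itgam and Itgb2 are shared with macrophages and changed less, with log2 -1.26 for Itgam. Both lost their call without Normal-titled library 2 or without Control-titled library 2 or 3, and Itgb2 also without Control-titled library 1, with an adjusted p of up to 0.0652 for Itgam and 0.127 for Itgb2. Mmp9, gelatinase B, was not called, at log2 -1.34 ± 0.42 (SE, edgeR adjusted p = 0.0621), and its groups overlapped.

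Of the surface and secreted genes of mature neutrophils, 9 of 12 tested were lower, Cxcr2, Il1b, Il1r2, Clec4d, Clec4e, Retnlg, Asprv1, Hdc and Wfdc21. Of these, Clec4d lost its call without Normal-titled library 2 or Control-titled library 1 or 3, Il1r2 without Control-titled library 1 or 3, Wfdc21 without Control-titled library 1 and Clec4e without Control-titled library 3, with an adjusted p of at most 0.0726. Retnlg, a resistin-like secreted protein, was at 42.6, 77.1 and 57.2 CPM in the Normal-titled libraries, 3.79, 2.10 and 4.204 CPM in the Control-titled libraries, and 4.51 and 16.8 CPM in the RP libraries. The 3 groups of Retnlg did not overlap, and its log2 change was -4.28 ± 0.42 (SE, edgeR adjusted p = 5.9e-05). Cxcr2, the receptor for neutrophil-attracting chemokines, had a log2 change of -3.42 ± 0.64 (SE, edgeR adjusted p = 0.00461). Il1b, interleukin 1 beta, which monocytes make too, was at 7.13, 19.1 and 14.8 CPM in the Normal-titled libraries and 1.04, 0.400 and 0.500 CPM in the Control-titled libraries. In the RP libraries Il1b was at 0.840 and 12.2 CPM, so RP library 2 lay within its Normal-titled range. Csf3r, the receptor for the growth factor G-CSF, was below the filter with 8, 19 and 12 counts in the Normal-titled libraries against 1, 0 and 0.

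The NADPH oxidase genes, which neutrophils share with macrophages, gave 0 calls of 6 with edgeR (1 at an unadjusted p under 0.05), DESeq2 or limma-voom. Of the transcription factors, Cebpd and Cebpb were lower among 4 tested, at log2 -1.81 ± 0.23 (SE, edgeR adjusted p = 0.000398) and -0.74 ± 0.18 (SE, edgeR adjusted p = 0.0182). Muscle and other cells express both, and each overlaps another gene (Spidr and Tmem189). Cebpb lost its call without Normal-titled library 2 and without any 1 Control-titled library, with adjusted p up to 0.0809. Spi1, which encodes PU.1, was not called at log2 -0.19 ± 0.33, and Cebpe, the factor of secondary granule genes, had 0 to 9 counts per library and was not tested.

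**Figure D4:**
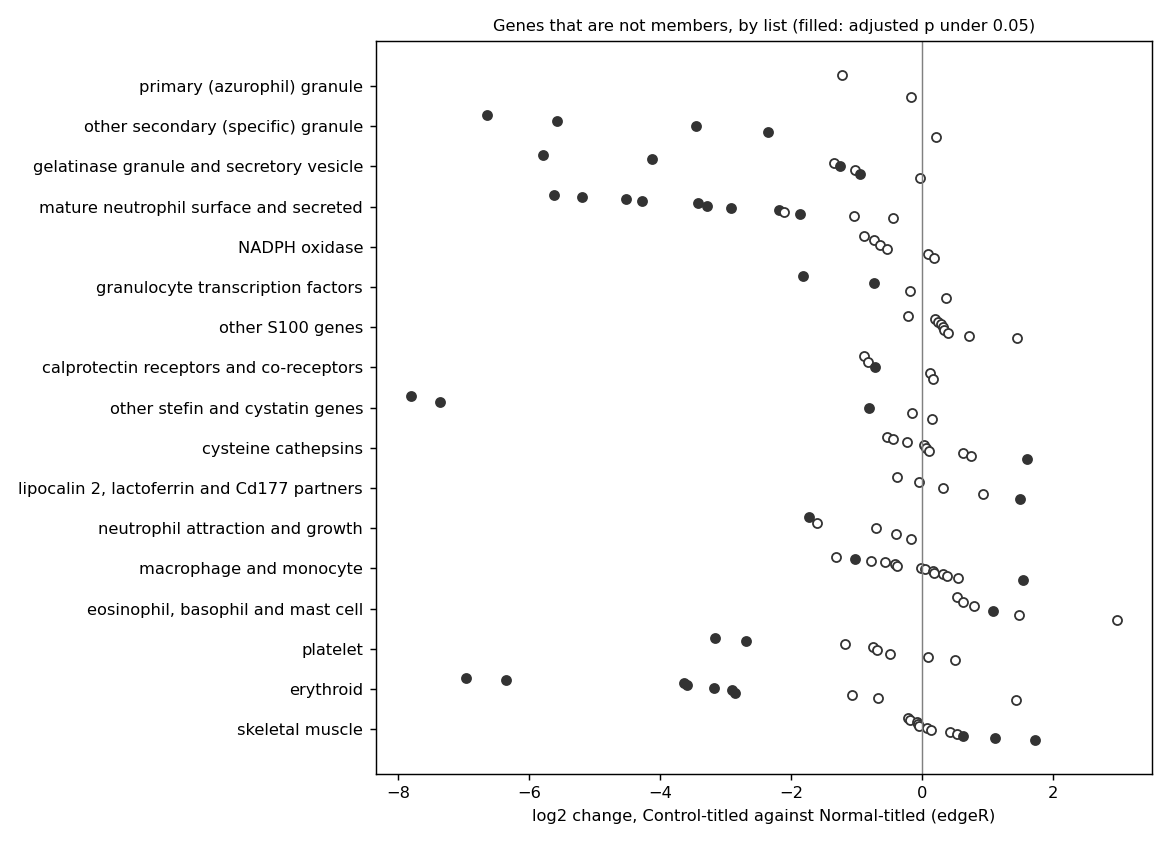
Fitted log2 change (x axis) of each tested gene that is not a member, Control-titled against Normal-titled libraries, in rows by gene list; filled points have an edgeR adjusted p under 0.05. Filled points far to the left lie in the secondary granule, gelatinase granule, mature neutrophil, stefin, platelet and erythroid rows, and the other S100 and NADPH oxidase rows hold none.

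Other S100 genes were also examined. Of 9 tested, 0 were called by edgeR (1 at an unadjusted p under 0.05), DESeq2 or limma-voom. For S100a1, S100a5, S100a6, S100a10, S100a11 and S100a16 every Control-titled library lay above every Normal-titled library, beside 22.3% of all tested genes. The groups overlapped for S100a4, S100a13 and S100b. The genes of the list summed to 1004 to 1640 CPM in the Normal-titled and 1712 to 1830 CPM in the Control-titled libraries. These are shares of plain totals, of which haemoglobin genes took 4.57% to 19.7% in Normal-titled and 1.41% to 1.61% in Control-titled libraries. A larger haemoglobin share lowers the CPM of all other genes, and its part in this separation was not tested. S100a6, a calcium-binding protein of many cell types, was at 644, 655 and 418 CPM in the Normal-titled libraries against 745, 684 and 713 CPM in the Control-titled libraries. Among receptors of calprotectin, Cd36, which binds its complexes with fatty acids, was lower at log2 -0.72 ± 0.19 (SE, edgeR adjusted p = 0.0309), with groups that overlapped, and lost the call without Normal-titled library 1 or 2 or Control-titled library 1 or 2 (adjusted p up to 0.147). Tlr4 had a log2 change of -0.89 ± 0.27 (SE, edgeR adjusted p = 0.0548), and Ager, the receptor RAGE, had 1 to 9 counts per library and was not tested.

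Of the other stefin and cystatin genes, 3 of 5 tested were lower, the stefins Gm5483 and Stfa1 and the cystatin Cst6. Gm5483 had 65, 106 and 131 counts in the Normal-titled libraries, 1, 0 and 0 in the Control-titled libraries and 3 and 13 in the RP libraries, and Stfa1 had 14, 22 and 26 counts against 0 in every Control-titled library. Stfa1 shares part of its sequence with BC100530, as 106 of the 251 windows at the 3′ end of BC100530 occur in it. Cst6 lost its call without any 1 library but Normal-titled library 1 (adjusted p up to 0.146). Cst3, the widely expressed cystatin C, had a log2 change of 0.15 ± 0.16. Of 9 cysteine cathepsins, their targets, 1 was called, Ctsk, which was higher at log2 1.60 ± 0.22 (SE, edgeR adjusted p = 0.00067). Of the genes that act with lipocalin 2, lactoferrin or CD177, 1 of 5 was called, the transferrin receptor Tfrc, higher at log2 1.497 ± 0.31 (SE, edgeR adjusted p = 0.00848). Among chemokines, growth factors and adhesion molecules that attract neutrophils, 1 of 5 tested was called, Selp (P-selectin), lower at log2 -1.73 ± 0.48 (SE, edgeR adjusted p = 0.0363). Selp lost its call without any 1 library but Normal-titled library 3 (adjusted p up to 0.147). In this contrast 10.4% of all tested genes were called and 5.45% were lower. Nothing is read from the lists in which 1 gene was called.

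In RP against Control-titled libraries, edgeR called 0 of the 36 other neutrophil genes, beside 0.175% of all tested genes. At an unadjusted p under 0.05 there were 13, while DESeq2 called 2 (Cebpd and Fpr2) and limma-voom 0. RP library 2 lay above every Control-titled library for 19 of the 36 and above RP library 1 for 33. No share over all genes is given for the 13, the 19 or the 33, and nothing is read from them. Against the Normal-titled libraries 3 were lower, beside 0.835% of all tested genes. They were Retnlg at log2 -2.48 ± 0.43 (SE, edgeR adjusted p = 0.00885), Hdc, the histamine-forming enzyme, and Wfdc21. All 3 lost that call when RP library 1 was left out, which leaves 1 RP library. Wfdc21 lost it also without Normal-titled library 2 (edgeR adjusted p = 0.144). RP library 2 lay within the Normal-titled range for 20 of the 36 genes, a count also given without a share over all genes, from which nothing is read.

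Red-cell genes moved with the members, in a contrast in which 5.45% of all tested genes were lower. Of 10 erythroid genes 7 were lower in the Control-titled libraries, and haemoglobin genes made up 4.57%, 9.56% and 19.7% of all counts in the Normal-titled libraries, 1.47%, 1.61% and 1.41% in the Control-titled libraries, and 0.862% and 3.83% in the RP libraries. The order differed within the Normal-titled group, where library 3 had the most haemoglobin and library 2 the most of 9 members. Of 8 platelet genes 2 were lower (Ppbp and Treml1), Treml1 not without Normal-titled library 3 or Control-titled library 1 or 3 (adjusted p up to 0.0928). The most abundant platelet gene, Pf4, was not called. Its Normal-titled mean was 84.5 ± 28.8 CPM and its Control-titled mean 129.8 ± 20.2 CPM (SD, n = 3 each), with groups that did not overlap, and Gp1ba had a log2 change of 0.09 ± 0.50 (SE). With the log2 level of Hba-a1, an alpha-globin gene, as a covariate, chosen after the data were seen, 3 of the 19 other neutrophil genes were still called lower (Cebpd, Hdc and Retnlg). All 19 kept a negative fitted log2 change, with a median of -1.75 in place of -3.42, and among those no longer called Mmp8 was at -4.60 ± 1.15 (SE, edgeR adjusted p = 0.0584) and Fpr2 at -2.99 ± 0.75 (SE, edgeR adjusted p = 0.0591). The count of all genes called went from 1376 to 305, and the 3 genes called in RP against Normal-titled libraries were no longer called, with a median log2 change of -1.38 in place of -2.31. The level of Hba-a1 itself did not overlap between the Normal-titled libraries and either other group. Covariate and titled group therefore cannot be fully told apart, and nothing is read from the calls lost or kept. The part that blood in the tissue played in the members' levels was not tested.

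**Figure D5:**
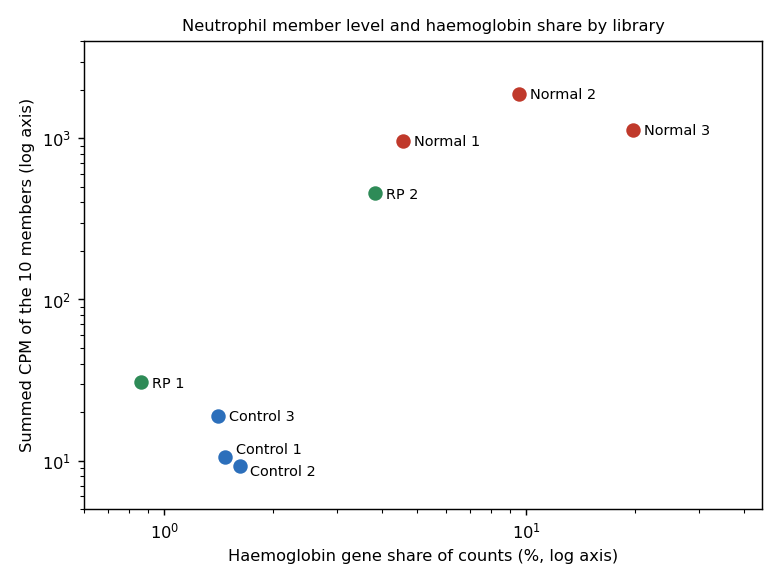
Summed level of the 10 members (y axis, CPM, log scale) against the haemoglobin gene share of all counts (x axis, %, log scale), 1 point per library in the colours of its titled group. The 3 Normal-titled libraries and RP library 2 lie at 3.83% haemoglobin or more and 456 CPM or more, and the other 4 at 1.61% or less and 30.7 CPM or less.

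Markers of other white cells were counted in the same contrast, in which 10.4% of all tested genes were called. Of 14 macrophage and monocyte genes 1 was higher (Folr2, of resident macrophages) and 1 lower (Ly6c2, of blood monocytes, not without Normal-titled library 2 or Control-titled library 2, at adjusted p up to 0.0533), and their summed level was 293 to 741 CPM in the Normal-titled, 532 to 809 CPM in the Control-titled and 435 to 656 CPM in the RP libraries. None of 13 lymphocyte genes passed the filter. Of 6 eosinophil, basophil and mast cell genes tested 1 was higher (Mcpt4), a call lost without Normal-titled library 2 or 3 or Control-titled library 1 or 3 (adjusted p up to 0.164). At an unadjusted p under 0.05 there were 4 of the 6, and their median log2 change was 0.93. The 10 genes of that list summed to 23.1 to 69.6 CPM in the Normal-titled, 72.0 to 99.7 CPM in the Control-titled and 49.6 to 57.3 CPM in the RP libraries. The muscle genes Mylpf, Pvalb and Casq1 were higher among 12 tested, Mylpf not without Normal-titled library 2 or any 1 Control-titled library (adjusted p up to 0.147). These 12 muscle-defining genes summed to 108900 to 123400 CPM in the Normal-titled, 157900 to 168400 CPM in the Control-titled and 165300 to 172500 CPM in the RP libraries.

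The genes most like the members were sought by Pearson r between log2(CPM + 1) and the members' mean on that scale over the 8 libraries, among 12564 genes. The first 10 were Mmp8 (r = 0.995), Ifitm1 (0.994), Retnlg (0.992), Fpr2 (0.983), Cxcr2 (0.980), Cxcl13 (0.971), Gm5483 (0.969), Gm1821 (0.967), Fpr1 (0.964) and Slc4a1 (0.962). Of these, 6 are in the neutrophil or stefin lists and Slc4a1, the red-cell anion exchanger, is in the erythroid list. Ifitm1, an interferon-induced membrane protein, was at 28.9, 52.4 and 30.8 CPM in the Normal-titled libraries, 2.75, 2.60 and 3.003 CPM in the Control-titled libraries, and 2.41 and 16.3 CPM in the RP libraries. Cxcl13, a chemokine for B cells, was at 23.3, 20.4 and 16.3 CPM, then 1.51, 1.70 and 2.00 CPM, then 2.73 and 5.46 CPM. Among the members themselves the 45 pairwise r ran from 0.814 to 0.996 with a median of 0.957. These correlations share the same 8 libraries and the gap between titled groups, and are a description only.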

How the data were processed

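The deposited files hold raw read counts per gene symbol, 1 file per library, with no normalization. Per the submitters' processing notes, the authors used Bowtie2, edgeR and build mm10; the counting tool, strand and annotation are not given in the sources used here. Libraries were grouped by title. The members and gene lists were chosen with earlier results of these data known. Named genes are the 10 members, up to 3 of the most abundant tested genes per list, 13 genes fixed by role, the 10 nearest in pattern and those making up small counts of calls.

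CPM used plain library totals. A group at 0 was set at 3 counts over the group, and 1 to 3 counts gave a pooled ratio with an exact counting interval at the 95% level. Of 23282 rows, 5430 had no count and 13174 passed filterByExpr, among them all 10 members. The edgeR 4.0.16 quasi-likelihood test (R 4.3.3, TMM, all 8 libraries in 1 fit, adjusted over 13174 genes, 0.05) was checked on simulated counts. For Control against Normal it recovered 58% of 50 genes changed 2-fold and 96% of those changed 4-fold, with 5.67% false calls, on 12919 genes. The simulation gave all genes 1 common spread, and apart from the set changes 1 mean per gene in all libraries. These rates may therefore not hold for genes whose libraries of a group differ more. Alternatives included DESeq2 1.42.0 and limma-voom (limma 3.58.1). No 2 libraries of a group agreed within sampling noise. Positions and transcripts come from GENCODE, and upstream windows from RefSeq.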

Additional observations from a re-analysis of the deposited data

How the results depend on the processing

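With 3, 3 and 2 libraries, members under about 20 counts are known only to within wide counting intervals, and no group was large enough to test for an outlying library. In Control against Normal, 1376 genes were called; the count was 305 with the Hba-a1 covariate, 2201 at an adjusted p of 0.1 and 608 to 1858 leaving out single libraries. The 19 other neutrophil genes became 8 with a mean CPM of at least 5, which tests fewer genes, 3 with that covariate and 14 to 21 leaving out single libraries. In RP against Control, 23 genes were called, and 204 with no filter, 11 with a mean CPM of at least 5, 112 by DESeq2, 10 by limma-voom, 53 with the covariate, 121 with only these groups in the fit, 51 at 0.1 and 8 to 31 leaving out single libraries. The other neutrophil genes went from 0 to 6 with no filter, 2 by DESeq2 and 0 to 5 leaving out single libraries. In RP against Normal, 330 genes were called, and 718 with no filter, 663 by DESeq2, 58 with the covariate, 100 with only these groups in the fit, 710 at 0.1 and 57 to 670 leaving out single libraries. The 3 other neutrophil genes became 11 with no filter, 1 with a mean CPM of at least 5, 7 by DESeq2, 0 with the covariate, 9 at 0.1 and 0 to 9 leaving out single libraries. With the covariate, Hba-a1 and Hba-a2 turned to log2 0.0878 and 0.30 in Control against Normal, as its construction makes likely. For the other changes the cause was not tested. Fits that leave out an RP library keep 1 RP library, so their counts of calls rest on no spread within that group.

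Leaving out single libraries moved the ratio of summed member CPM between 0.00744 and 0.0123 for Control against Normal, 2.37 and 35.2 for RP against Control, and 0.0230 and 0.342 for RP against Normal, and no ratio changed direction. Without 1 Control-titled library the ratios of undetected genes, set at 3 counts, rise because fewer counts stand behind them. They went to 0.107 for Cd177, 0.0943 for Stfa2 and 0.0640 for BC100530 of the Normal-titled mean, and to 0.0321 for Stfa2l1 without Control-titled library 3. In RP against Control the ratio of Cd177 to 3 counts went from 2.08 to between 1.36 and 1.399 in the same way, and to 2.27 with TMM scaling. TMM scaling and leaving out haemoglobin counts gave 0.00874 and 0.00872, 20.8 and 19.2, and 0.182 and 0.168. Deviations of same-numbered libraries from their group means showed little correlation (r of -0.068 to 0.08). With so few libraries per group these deviations constrain each other, so this cannot exclude a pairing by number. With the replicate block the calls were 1218, 17 and 262 genes, and 19, 0 and 4 other neutrophil genes.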
